A study of Homo sapiens with 6 samples.

Results

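The 7 genes described here encode the upstream stimulatory factors USF1, USF2 and USF3 and the MiT/TFE factors MITF, TFE3, TFEB and TFEC. They were chosen by name as relatives of USF2, and their members are the ChIP-seq peaks inside or within 3 kb of each gene body on hg38. Of the 81170 peaks in all 4 lists, 25 met this rule. These were 11 of 37574 and 9 of 29889 PLAG1-S peaks, in clones 4 and 5, and 4 of 9338 and 1 of 4369 USF2 peaks.

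The cells were K562, a human chronic myelogenous leukemia line. Both clones, #4 and #5, carried the same overexpression of FLAG-tagged PLAG1-S, the short form of the zinc finger factor PLAG1, and of USF2, from a single lentiviral vector with a P2A site between the coding sequences, and each clone was 1 stable line. Each clone gave an anti-Flag (PLAG1-S) library, an anti-USF2 library and an input, and cells without the transgenes were not part of the ChIP-seq, so that occupancy at endogenous levels of both factors cannot be read from these lists. The labels give 42.5 M reads per immunoprecipitation and 55 M per input, and the lists hold the peaks that MACS2 called in each library against the merged inputs.

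USF1, USF2 and the MiT/TFE factors share a basic helix-loop-helix leucine zipper, with which they bind E-boxes as dimers. USF1 and USF2 pair with each other or themselves and prefer the palindrome CACGTG. The MiT/TFE proteins pair among themselves and bind CACGTG as well as CATGTG. USF1 and USF2 are found in most tissues, USF3 is a much larger and less studied protein, MITF directs melanocytes and mast cells, TFEB and TFE3 drive lysosomal and autophagy genes, and TFEC is largely a factor of the macrophage lineage. The anti-USF2 libraries thus measured the product of 1 of these genes, which is itself overexpressed, over the others.

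PLAG1-S occupied 4 of the 7 genes in both clones (USF2, USF3, TFE3 and TFEB), USF2 occupied 1 in both clones (USF2), and that gene was also the only one of the 7 where both factors met. Reproducible peaks were those of clone 4 sharing 1 bp or more with clone 5 for that factor, and co-bound peaks were reproducible PLAG1-S peaks whose edge was no more than 100 bp from a reproducible USF2 peak. Among 20037 protein-coding genes, 52.0% had a reproducible PLAG1-S peak inside or within 3 kb, 10.3% a reproducible USF2 peak and 9.98% a co-bound peak. By single lists, 5 of the 7 genes had a PLAG1-S peak in clone 4 (64.0% of coding genes) and 4 in clone 5 (58.3%), while 2 had a USF2 peak in clone 4 (25.3%) and 1 in clone 5 (13.6%). These counts are close to those of coding genes at large, and nothing about the family as a group is read from them. USF1 and TFEC had no peak in any list.

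The sequences around the starts of USF2 and TFEB are given because the peaks of both factors fall there, and that of USF1 because it is the closest relative of USF2 and had no peak. They were taken from RefSeq (GRCh38.p14), run from 250 bases before to 50 bases after a listed start, and read 5′ to 3′ on the strand of the gene. Capitals mark E-boxes of the forms CACGTG or CATGTG on either strand, and a sequence without capitals holds neither.
USF2, chr19:35268712-35269011, plus strand: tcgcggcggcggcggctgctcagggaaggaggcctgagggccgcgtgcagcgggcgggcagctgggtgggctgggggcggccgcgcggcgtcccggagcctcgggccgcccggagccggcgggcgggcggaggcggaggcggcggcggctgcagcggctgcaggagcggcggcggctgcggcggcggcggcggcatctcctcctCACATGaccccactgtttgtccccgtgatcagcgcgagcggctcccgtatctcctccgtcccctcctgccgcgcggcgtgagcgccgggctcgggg
USF1, chr1:161045928-161046227, minus strand: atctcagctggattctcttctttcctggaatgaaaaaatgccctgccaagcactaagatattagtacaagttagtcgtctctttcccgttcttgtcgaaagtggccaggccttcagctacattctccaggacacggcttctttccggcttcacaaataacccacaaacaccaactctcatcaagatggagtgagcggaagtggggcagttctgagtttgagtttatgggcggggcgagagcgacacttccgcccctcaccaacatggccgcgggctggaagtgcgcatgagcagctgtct
TFEB, the second listed start, chr6:41735011-41735310, minus strand: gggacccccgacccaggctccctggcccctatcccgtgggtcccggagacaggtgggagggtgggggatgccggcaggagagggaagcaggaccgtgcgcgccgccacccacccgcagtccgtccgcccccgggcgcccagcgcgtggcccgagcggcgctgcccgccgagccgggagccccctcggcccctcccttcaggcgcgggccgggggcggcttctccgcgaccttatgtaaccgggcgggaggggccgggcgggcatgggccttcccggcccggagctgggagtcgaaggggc
TFEB, the third listed start, chr6:41734352-41734651, minus strand: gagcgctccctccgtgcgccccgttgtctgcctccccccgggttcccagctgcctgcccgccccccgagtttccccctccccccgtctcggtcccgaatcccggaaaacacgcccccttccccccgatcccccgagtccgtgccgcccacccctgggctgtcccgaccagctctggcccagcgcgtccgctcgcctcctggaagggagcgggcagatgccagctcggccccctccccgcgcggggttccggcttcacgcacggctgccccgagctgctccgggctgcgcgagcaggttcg

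USF2 carried the strongest peaks of the family in every list. Its gene (gene ID 7392) lies on chromosome 19 from 35268962 to 35279821 on the plus strand. The PLAG1-S peak over its start ran from 35268611 to 35270141 in clone 4 and from 35268595 to 35270134 in clone 5. Its fold enrichment, the ratio to the local input background at the summit with a small constant added to both, was 23.04 in clone 4 and 20.7 in clone 5. These rested on 93 and 79 fragments over the summit, with a −log10 q of 97.2 and 79.1. Both placed the peak high in its list, in the top 2.22% and the top 2.17% by fold enrichment. The clones thus gave nearly the same peak, with starts 16 bp, ends 7 bp and summits 9 bp apart.

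The USF2 peak at its own gene was narrower than the PLAG1-S peak and stood lower in its lists by fold enrichment. Its width of 321 bp in clone 4 and 418 bp in clone 5 was above the medians of these lists, 209 and 212 bp. It ran from 35268720 to 35269040 in clone 4 and from 35268624 to 35269041 in clone 5. The fold enrichment was 10.0 with 40 fragments in clone 4, and 7.54 with 29 fragments in clone 5. The −log10 q was 26.3 and 15.03, and the peak stood in the top 7.21% and the top 15.4% of its lists. So all 4 libraries had a peak at the start of USF2, and it was well past the peak-calling threshold in each.

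**Figure D1:**
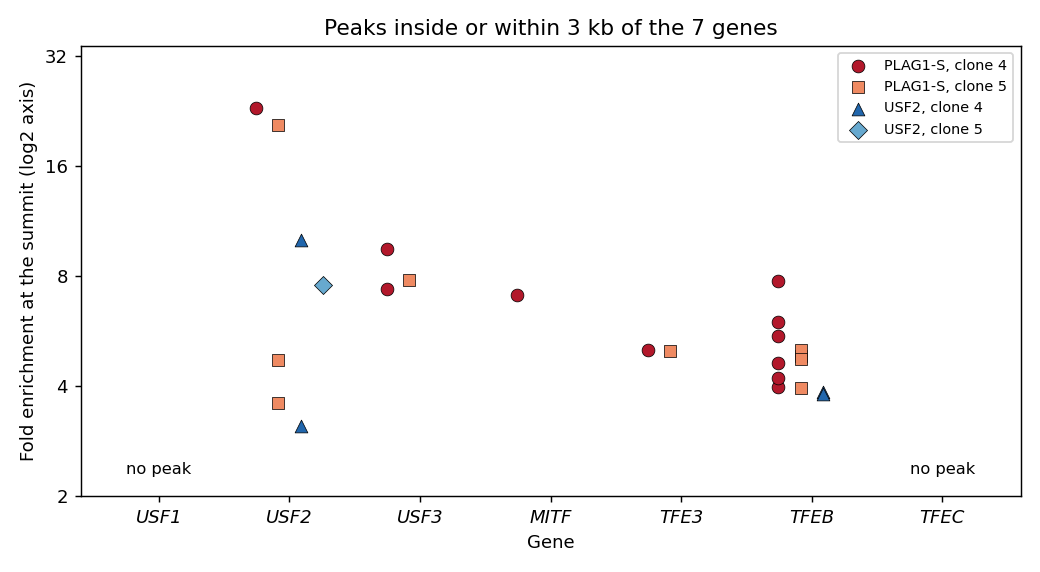
Fold enrichment at the summit (log2 axis) of each of the 25 peaks, by gene, with a symbol for each of the 4 libraries. The PLAG1-S peaks at USF2, 23.04 and 20.7, stand above every other peak of the family, the USF2 antibody gave peaks at USF2 and TFEB and at no other of the 7 genes, and USF1 and TFEC are empty.

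The strength of the USF2 locus can be set against that of other genes. By the strongest reproducible PLAG1-S peak of each gene, USF2 ranked 949th of 10423 protein-coding genes (top 9.10%), where the median gene had a clone 4 fold enrichment of 8.17. By the strongest reproducible USF2 peak it ranked 798th of 2073 (top 38.5%), with a median of 8.38. The locus was hence a strong PLAG1-S site, and a USF2 site above the median of its kind. These ranks compare genes within a list and are descriptions with no test.

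The 4 summits at the start of USF2 lay within a few bases of an E-box that is not the palindrome. The PLAG1-S summits were at 35268925 and 35268916 and the USF2 summits at 35268906 and 35268929, in clones 4 and 5, all between 33 and 56 bp upstream of the start. Of the E-box forms CACGTG and CATGTG, the window printed above holds 1, CACATG, which is CATGTG on the other strand. This E-box lies at chr19:35268916-35268921 (bases 205 to 210 of the window), 46 bp before the start. The summits were 6.5 bp after (clone 4) and 2.5 bp before (clone 5) its centre in the PLAG1-S lists, and 12.5 bp before and 10.5 bp after it in those of USF2. Neither factor was thus on 1 side of the E-box in both clones.

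Such a site was uncommon under USF2 peaks. A reproducible USF2 summit fell in 786 of the 22199 promoter windows of protein-coding genes, which make up 679 different peaks. Of these peaks, 584 (86.0%) had CACGTG in the window, 36 (5.30%) had CATGTG and no CACGTG, and 59 (8.69%) had neither. Over all windows, 8.34% held CACGTG, 8.93% held CATGTG and 8.16% held CATGTG with no CACGTG, on either strand. The E-box of USF2 is flanked by T before and A after it, on both strands. This form was present in 0.932% of all windows and in 4.71% of those with a reproducible USF2 summit. These shares of windows were counted whether or not CACGTG was present as well. Of the windows with such a summit, 12.2% held CATGTG, and 4.83% held it with no CACGTG. E-boxes of other forms, and those outside the window, were not searched.

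Among the 36 peaks with CATGTG and no CACGTG, the peak at USF2 ranked 12th by clone 4 fold enrichment. The median of these peaks was 8.10 (quartiles 6.24 and 10.1), that of the peaks with CACGTG 10.8 (7.41 and 16.1), and that of the peaks with neither 6.53 (4.70 and 9.62). The quartile ranges overlap, and the classes were not tested against each other. The distance from the USF2 summit to the centre of the E-box had a median of 12 bp for CATGTG and 8.5 bp for CACGTG, and 58.3% and 74.3% lay within 15 bp. At USF2 it was 12.5 bp in clone 4, near the median of its class. The bipartite G-rich consensus of PLAG1 was not matched in the USF2 window, on either strand. It was found in 32.1% of all windows, 45.8% of those with a reproducible PLAG1-S summit and 44.0% of those with a co-bound one. Most windows of each kind thus lacked it too. The window was rich in G and C (80.3%, against a median of 62.3% over all windows and 69.0% over those with a co-bound summit).

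Within the co-bound region the summits of both factors nearly coincided. The PLAG1-S and USF2 summits were 19 bp apart in clone 4 and 13 bp apart in clone 5. By contrast, the PLAG1-S peak reached far beyond the USF2 peak into the gene. It was 1531 and 1540 bp wide, which put it among the widest 0.354% and 0.365% of the PLAG1-S peaks, and its end lay 1101 and 1093 bp past the end of the USF2 peak. In clone 4 alone, a second and weak USF2 peak lay under this extension, from 35269778 to 35270010. Its summit was 922 bp into the gene with a fold enrichment of 3.12, 20 fragments and a −log10 q of 2.78. Of the clone 4 USF2 peaks with a fold enrichment within 10% of that value, 8.50% had a partner in clone 5.

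**Figure D2:**
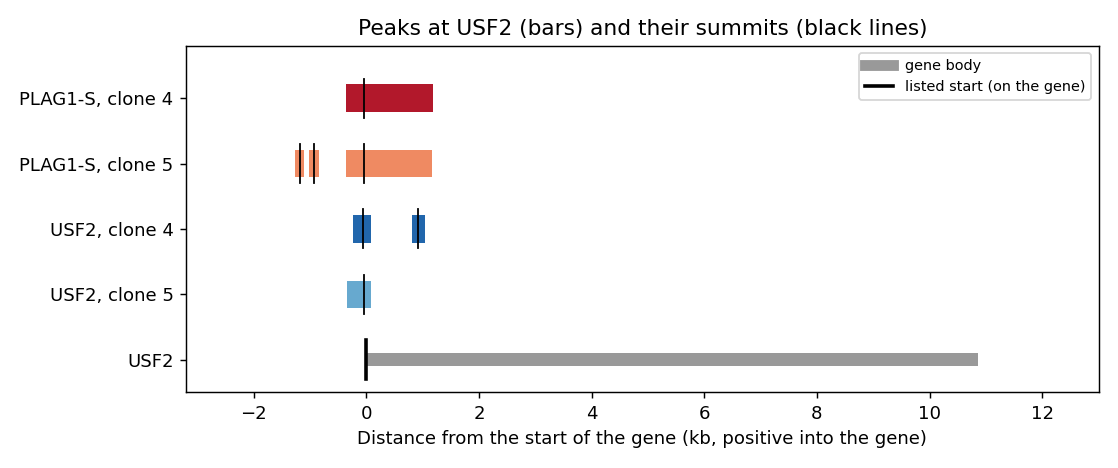
Peaks at USF2 in the 4 libraries (bars, with a black line at each summit) against the distance from the start of the gene in kb, with the gene body in grey. The summits of all 4 libraries line up just upstream of the start, the PLAG1-S bars extend about as far as the second USF2 peak of clone 4, and the rest of the gene is free of peaks.

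Because USF2 is overexpressed from a cDNA, reads of the vector could map to its exons and be taken for peaks there. The peak lists were therefore searched along the gene beyond the first kb. No list had a summit there, and no peak reached further than 1179 bp past the start, which left 9680 bp of the gene, of 10860 bp in all, without a peak in clone 4 of PLAG1-S and 10780 bp in clone 5 of USF2. The other libraries left 9687 bp (PLAG1-S, clone 5) and 9811 bp (USF2, clone 4). Likewise no list had a peak inside PLAG1, the other transgene. The single peak near it, in clone 5 of PLAG1-S, had a fold enrichment of 3.75. Its summit was 396 bp beyond the gene and 120 bp from an end of CHCHD7. Inputs of the same clones, against which the peaks were called, would hold vector reads as well. The absence of summits beyond the first kb of USF2 and of peaks inside PLAG1 therefore cannot show that such reads were absent.

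The local background at the 4 summits at the USF2 start was 3.08 (clone 4) and 2.86 (clone 5) fragments in the PLAG1-S lists, and 3.09 and 2.98 in those of USF2, below the median of each list (0.840, 0.840, 0.823 and 0.787 times it). These summits lie upstream of the gene, outside the cDNA. The span over which the caller took the background is not given, and whether it holds vector reads was not tested. At the second USF2 peak of clone 4 it was 5.74 fragments, or 1.53 times the median of the list. The positions of exons were not used here, so that whether this peak or the extension of the PLAG1-S peak covers an exon is not given, and a part of vector reads in them was not tested.

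The genes next to USF2 share its window. In clone 5 of PLAG1-S, 2 weak peaks with fold enrichments of 3.59 and 4.70 had summits 181 and 62 bp from the end of LSR, a lipoprotein receptor gene upstream of USF2, and 1179 and 936 bp from the start of USF2. Neither overlapped a clone 4 peak. On the other side HAMP, which encodes the iron hormone hepcidin and is known as a target of USF2 in liver, starts 2707 bp beyond the end of USF2. No list had a peak within 3 kb of HAMP, and the nearest peaks were 8629 bp (PLAG1-S, clone 4) to 13487 bp (USF2, clone 5) away.

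USF1 differed from USF2 in having no peak at all. Its gene (chromosome 1, 161039251 to 161045977, minus strand, gene ID 7391) was 25231 and 18387 bp from the nearest PLAG1-S peak in clones 4 and 5, and 268284 and 4512 bp from the nearest USF2 peak. Both of its promoter windows lacked the PLAG1 consensus and either form of E-box. The G and C content of these windows was 51.7% and 53.7%. No peak in a list means that none passed the threshold of the caller, and weaker occupancy cannot be seen in these files.

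USF3 carried PLAG1-S without USF2. Its gene (chromosome 3, 113648385 to 113696642, minus strand, gene ID 205717) had a PLAG1-S peak just inside the start, from 113695966 to 113696524 in clone 4 and from 113695978 to 113696579 in clone 5. The fold enrichment was 9.48 with 35 fragments and 7.78 with 27 fragments, and the summits lay 391 and 321 bp downstream of the start. Both peaks were in the upper part of their lists (top 14.7% and 17.6%). In clone 4 a further peak with a fold enrichment of 7.35 lay upstream of the gene, with its summit 728 bp before the start, and it had no partner in clone 5. The nearest USF2 peak was 1086232 bp from the gene in clone 4 and 596880 bp in clone 5. The promoter window of USF3 held no E-box of either form, and the PLAG1 consensus on the strand of the gene, beginning at base 231.

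TFE3 ranked lowest of the 4 genes with reproducible PLAG1-S peaks, 8615th of 10423 coding genes, after USF2 (949th), USF3 (4245th) and TFEB (5567th). The gene (chromosome X, 49028726 to 49043357, minus strand, gene ID 7030) had a PLAG1-S peak from 49042951 to 49043276 in clone 4 and from 49043079 to 49043258 in clone 5. Both had a fold enrichment of 5.00 to 5.01, with 18 and 17 fragments. The summits lay 328 and 208 bp downstream of the start, 120 bp apart, the largest distance between clones among the 7 reproducible peaks. The −log10 q was 6.95 and 6.47, so that TFE3 was not kept when a −log10 q of at least 10 was required. The nearest USF2 peaks were 91423 and 109556 bp from the gene.

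TFEB held the most peaks of the family, 12 of the 25, all of modest fold enrichment. The gene (chromosome 6, 41683978 to 41736223, minus strand, gene ID 7942) has 3 listed starts, of which the first is at 41735608, the second at 41735060 and the third at 41734401. At the second start, PLAG1-S had a peak from 41734864 to 41735242 in clone 4 and from 41734866 to 41735213 in clone 5. The fold enrichment was 5.98 with 31 fragments and 4.76 with 23 fragments, and the summits lay 29 and 42 bp upstream of that start. In the sequence of this window the summits are at bases 222 and 209.

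The other PLAG1-S peaks of TFEB lay deep in the gene. The strongest had its summit at 41724851 in clone 4 and 41724828 in clone 5, 9550 and 9573 bp downstream of the nearest start, with fold enrichments of 7.75 and 5.00 and 40 and 32 fragments. Its ratio of clone 4 to clone 5, 1.55, was the largest among the 7 reproducible PLAG1-S peaks, which otherwise ranged from 0.959 to 1.26. For comparison, the ratio over all reproducible PLAG1-S peaks had a median of 1.13 (quartiles 0.929 and 1.37). About 1 kb further in, a peak had fold enrichments of 4.20 and 3.94 with 37 and 25 fragments. A further peak, 20700 bp from the nearest start in clone 4, had fold enrichments of 4.63 and 4.82. Between these lay 2 peaks of clone 4 with fold enrichments of 5.47 and 3.97 that had no partner in clone 5. The microRNA gene MIR10398 lies inside TFEB and is nearer than the ends of TFEB to 10 of the 12 summits, with 779 bp to the USF2 summit at the third start. Whether these peaks are exonic or intronic was not resolved with the gene table used.

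USF2 peaks at TFEB were seen in clone 4 alone. One ran from 41734316 to 41734492 with its summit at 41734389, 12 bp downstream of the third start, and a fold enrichment of 3.85. The other USF2 peak ran from 41734753 to 41734961 with its summit 169 bp downstream of the second start and a fold enrichment of 3.81. Each rested on 18 fragments, with a −log10 q of 3.83 and 3.76. The latter overlapped the clone 4 PLAG1-S peak by 98 bp, but its summit was 198 bp from the PLAG1-S summit, against 19 bp at USF2. Of the clone 4 USF2 peaks with a fold enrichment within 10% of theirs, 7.62% and 8.09% had a partner in clone 5, where the nearest USF2 peak was 95694 bp from the gene. All 3 TFEB windows lacked both E-box forms. The PLAG1 consensus was matched in the window of the third start, on the opposite strand, and not in that of the second, under which the PLAG1-S summits lay.

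**Figure D3:**
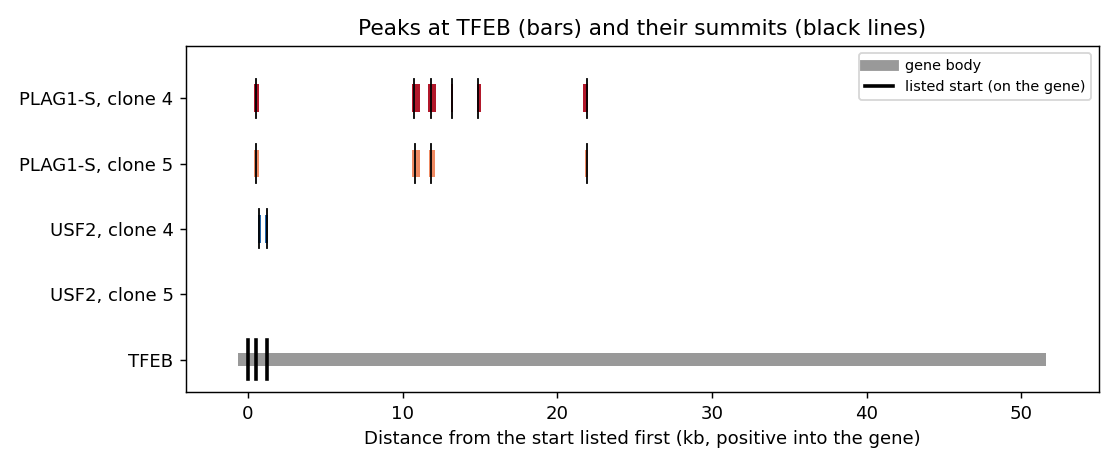
Peaks at TFEB in the 4 libraries (bars, with a black line at each summit) against the distance in kb from the start listed first, with the gene body in grey and the 3 listed starts in black. PLAG1-S peaks occur at the starts and between about 9550 and 20700 bp from the nearest start in clone 4, whereas both USF2 peaks lie at the starts and belong to clone 4.

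The local background at every peak of TFEB was above the median of its list. At its 10 PLAG1-S peaks the background ranged from 3.56 to 8.05 fragments, or 1.02 to 2.19 times the median of the list. The highest value, 8.05, was at the clone 4 peak with a fold enrichment of 4.20, whose 37 fragments were more than the 35 of the USF3 peak with a fold enrichment of 9.48. At TFE3, MITF and the peak inside USF3 it was 2.80 fragments in clone 4, and at TFE3 and USF3 it was 2.60 in clone 5. These equal values are the lower limit of the background in each list, so differences between these genes cannot be read from them. Peaks near USF2 lay on both sides, from the values below the median at its start to 1.34 times the median at the PLAG1-S peak of clone 5 farthest upstream and 1.53 times at the second USF2 peak of clone 4, which is above most peaks of TFEB. The part of this background in the low fold enrichments at TFEB was not tested.

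MITF and TFEC were nearly or wholly without peaks. MITF (chromosome 3, 69739464 to 69968332, plus strand, gene ID 4286) spans 228869 bp and had 1 peak, of PLAG1-S in clone 4, from 69785263 to 69785576. Its fold enrichment was 7.11 with 26 fragments and a −log10 q of 14.02, and its summit was 21639 bp downstream of the nearest of the 3 listed starts and 15677 bp from the pseudogene RN7SL418P. A clone 5 partner was found for 74.5% of PLAG1-S peaks of clone 4 whose fold enrichment was within 10% of that. This peak had none, and the nearest clone 5 PLAG1-S peak was 653894 bp from the gene. The nearest USF2 peaks were 725364 and 11218118 bp away. TFEC (chromosome 7, 115935152 to 116159896, minus strand, gene ID 22797) lay 50828 and 50596 bp from the nearest PLAG1-S peak, and 365239 and 793333 bp from the nearest USF2 peak. The windows of both genes held no E-box of either form and no PLAG1 consensus.

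**Figure D4:**
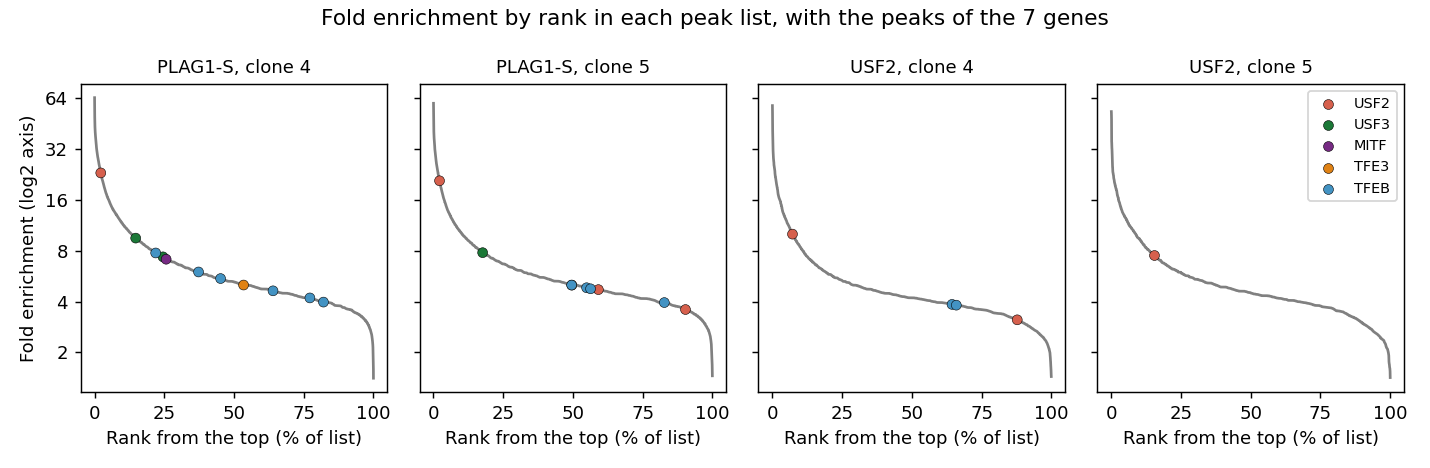
Fold enrichment (log2 axis) of all peaks of each list by rank in percent from the top (grey), with the peaks of the 7 genes marked by gene. The peak at the start of USF2 lies in the steep upper part of each list, whereas the peaks of TFE3 and most of those of TFEB lie on the flat part. In clone 5 of PLAG1-S the point of TFE3 (top 49.6%) lies under one of TFEB (49.5%).

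The share of genes with a PLAG1-S peak was lowest for the shortest genes. Of protein-coding genes under 8000 bp, the class of USF1, 38.9% had a reproducible PLAG1-S peak, and of those of at least 60000 bp, the class of MITF and TFEC, 56.2%. For reproducible USF2 peaks the shares were 9.14% and 9.96%. When only promoter windows were counted, a choice made after seeing the data, 2 of the 7 genes had a reproducible PLAG1-S peak (USF2 and TFEB) 1 a reproducible USF2 peak and 1 a co-bound peak, against 33.5%, 5.97% and 6.84% of 15843 coding genes with a window. Co-bound genes were placed by the wider PLAG1-S peak. The reproducible peaks of USF3 and TFE3 lay just downstream of their windows.

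Genes around the family were described with 3 lists written by hand with earlier results of these data known. Of 30 genes that control the location or stability of MiT/TFE proteins, 27 had a reproducible PLAG1-S peak (90.0%, against 52.0% of coding genes) and 11 a co-bound peak (36.7%, against 9.98%). The strongest by USF2 were MCOLN1, the lysosomal calcium channel, with clone 4 and clone 5 USF2 fold enrichments of 44.1 and 32.2, the Rag GTPase gene RRAGC with 25.7 and 21.3, FNIP1 with 24.9 and 15.6, its partner FLCN (folliculin) with 15.3 and 9.94, and LAMTOR1, a lysosomal anchor of the Rag GTPases, with 11.03 and 10.1. At TFEB, the factor whose location these proteins set, the clone 4 values were 3.85 and 3.81. The clone 4 PLAG1-S fold enrichment was 57.5 at MCOLN1, 37.5 at RRAGC, 39.9 at FNIP1, 27.3 at FLCN and 35.9 at LAMTOR1, all above the 23.04 at USF2.

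Of 20 genes known as targets of USF proteins, 14 had a reproducible PLAG1-S peak (70.0%, against 52.0% of coding genes) and 9 a co-bound peak (45%, against 9.98%). The strongest were CDK4, a kinase of the cell cycle, with USF2 fold enrichments of 28.4 and 20.1 in clones 4 and 5, IGF2R, the mannose 6-phosphate receptor, with 26.0 and 17.6, the DNA repair gene APEX1 with 19.6 and 15.7, the topoisomerase gene TOP3A with 17.6 and 10.4, and HOXB4 with 12.6 and 10.8. Those 5 were all above the USF2 peak at its own gene. Of 16 melanocyte targets of MITF, such as TYR, DCT and PMEL, 6 had a reproducible PLAG1-S peak (37.5%, against 52.0% of coding genes) and 0 a reproducible USF2 or co-bound peak, against 10.3% and 9.98%. With 16 genes and shares that low, nothing is read from the count of 0. The lists were chosen with earlier results known and were not tested.

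The genes whose pattern over the 4 lists was most like that of USF2 were found among 2304 protein-coding genes with a peak in each list, by the Euclidean distance of the log2 fold enrichments of the strongest peaks. They were ZCCHC2, at a distance of 0.0819, and PECR and TMEM169, which share 1 set of peaks, at 0.112. The clone 4 and clone 5 fold enrichments at ZCCHC2 were 24.0 and 20.8 in the PLAG1-S lists, and 10.3 and 7.31 in those of USF2. At PECR the PLAG1-S values were 22.3 and 20.8 and the USF2 values 9.94 and 7.04.

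Over the family, a partner in clone 5 was found for 7 of the 11 PLAG1-S peaks of clone 4 and for 1 of its 4 USF2 peaks, against 57.1% and 25.8% of the whole lists. Of the 7 reproducible PLAG1-S peaks, 6 had a larger fold enrichment in clone 4, by ratios of 1.00 to 1.55, and the peak of TFEB farthest from its starts had a ratio of 0.959. At USF2 the ratio was 1.11 for PLAG1-S and 1.33 for USF2. Over all reproducible USF2 peaks its median was 1.21. Peaks of 1 library are not replicates, each factor had 2 clones, and all 4 lists share the merged inputs, so that no test between groups was run on these values.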

How the data were processed

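Chromatin was immunoprecipitated with anti-Flag (PLAG1-S) or anti-USF2 from 2 clones of K562 cells. The submitters' processing notes name FastQC, cutadapt, HISAT2 2.0.4, SAMtools, MACS2, bedtools and HOMER and the build hg38. The authors deposited 1 peak list per library, called against the merged inputs. In these, the fold is a ratio to the local background at the summit, the −log10 values deposited are those of p and q, and the score deposited is 10 times the −log10 q. Largest q-values were 0.0099 and 0.0097 in the PLAG1-S lists, and 0.049 and 0.048 in those of USF2, so that the USF2 lists use a looser threshold.

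Counts of fragments at each summit, and the background there, were solved from fold and −log10 p where a whole number matched within 0.001, as for at least 99.9% of peaks in each list, and median summits held 20.5 to 24 fragments. Depth sets which weak peaks were called. Genes, starts and promoter windows came from RefSeq (GRCh38.p14), which gave 59679 genes and no exons. Protein sequences and the genome were not used, so motifs were searched in promoter windows alone and the planned comparison of proteins was not run.

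The clone number in the labels is that of a cell line and pairs the libraries. Members and lists were chosen with earlier results of these data known. All 7 genes and all their peaks are named, with neighbours nearer to a summit than the ends of the gene (MIR10398 inside TFEB is one, for 10 of its 12 peaks), the co-bound genes of each list (at most the 5 with the largest clone 4 USF2 fold), and the 3 genes most like a gene with peaks in all lists. PLAG1, HAMP and CHCHD7 were named after their values were seen. Python 3.11.15, numpy 2.4.6, pandas 2.3.3, scipy 1.17.1 and matplotlib 3.10.9 were used, and counts and recovery were checked on simulated data. Alternatives changed how clones were combined, the q threshold, the distances and the part of the peak placed.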

Additional observations from a re-analysis of the deposited data

How the results depend on the processing

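The number of the 7 genes with a reproducible PLAG1-S peak was 4 and ranged from 3 to 5 with the other settings, and that with promoter windows, chosen after seeing the data, was 2. The replicate block, which counts within each clone and averages, gave 4.5 genes with PLAG1-S, 1.5 with USF2 and 1.5 co-bound, 10 PLAG1-S peaks, 2.5 USF2 peaks against 1, and 61.2%, 19.5% and 15.9% of coding genes.

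With the union of both clones, 2 genes had a USF2 peak and 2 a co-bound peak, with 13 PLAG1-S, 4 USF2 and 2 co-bound peaks, and the shares of coding genes were 67.8%, 27.1% and 22%. Leaving out 1 clone gave 4 to 5 genes and 9 to 11 peaks for PLAG1-S, 1 to 2 genes and 1 to 4 peaks for USF2, and 1 to 2 genes and 1 to 2 peaks for co-binding, with shares of 58.3% to 64.0%, 13.6% to 25.3% and 11.3% to 20.5%. The upper values are those of clone 4 alone, where TFEB adds its 2 weak USF2 peaks. Where −log10 q had to reach 10, 3 reproducible PLAG1-S peaks, at USF2, USF3 and TFEB, were left, and the USF2 peak at USF2 stayed.

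The share of coding genes with PLAG1-S was 46.2% with 50% reciprocal overlap, 33.0% at that q threshold, 45.7% for gene bodies alone, 57.7% within 10 kb, 26.8% over all RefSeq genes and 33.5% over promoter windows. The single co-bound peak at USF2 was also counted at 0 and 500 bp between edges and at 100 bp between summits. The lists hold no peaks below the threshold, so that the absence of a peak at USF1 or TFEC is limited by the depth of each library.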
